A study of Mus musculus with 12 samples.

Results

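The transcripts of 47 cell cycle and DNA replication genes were followed in mouse pancreatic ductal adenocarcinoma (PDA) organoids with and without the transcription factor gene Spdef. The 47 genes were a named list, found by Ensembl gene ID and assigned symbols with the GENCODE M21 annotation, out of 53715 gene IDs in the deposited tables. All 47 were among the 14473 genes with enough counts to be tested. They were read in 2 classes, 20 genes of the G1/S transition and DNA replication and 25 genes of G2 and mitosis, with Ccnd1 and Mybl2 placed in neither.

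The 12 libraries formed 6 groups of 2, from 2 organoid lines named mT6 and mT69a. Each line had a control group, which was a clone knocked out at the mRosa26 locus and carried an empty vector. A knockout group of each line was a Spdef knock-out clone, KO1, with the same empty vector, and an SPDEF vector group was the KO1 clone with an over-expression vector labelled for SPDEF. All organoids came from tumors of the mouse strain C57/Bl6, with Trp53LSLR172H/LOH and Pdx1-Cre in the genotype that the sample labels give, and were grown in Matrigel. The controls therefore carried the same mutant Trp53 as the other groups. Each line was represented by 1 control clone and 1 Spdef knock-out clone, so a difference between clones and the loss of Spdef cannot be told apart. Nothing in the labels states that replicates were separate cultures, so the p-values refer to the spread between libraries, which may be technical.

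Cells that commit to divide pass the restriction point when cyclin D and cyclin E kinases release E2F transcription factors from the RB protein. E2F then drives the genes that license and copy DNA, among them the MCM helicase and the enzymes that supply nucleotides. Genes of G2 and mitosis are held down by the DREAM complex in resting cells and are switched on later by B-MYB and FOXM1. Bulk transcript levels of these genes are widely read as an index of proliferation in epithelial tumors. In such bulk RNA, fewer cycling cells and less of a transcript per cycling cell cannot be told apart.

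Library depth ran from 9094295 to 28903831 estimated counts. The epithelial markers Epcam, Krt8, Krt18, Krt19, Krt7, Cdh1 and Sox9 were all above 1 TPM (transcript level per length, scaled to a fixed total) in all 12 libraries, with Krt19 at 485 to 1954 TPM. Of the 7 fibroblast markers none reached 1 TPM, their sum lay between 0 and 0.23 TPM, and Col3a1 and Lum were at 0 in every library. Summed endothelial markers stayed at or below 0.27 TPM and acinar markers at or below 1.22 TPM, while the immune markers summed to 2.10 to 14.2 TPM with Adgre1 and Cd3e at 0. Mouse Spdef itself had 30 and 29 counts in the mT6 controls and 0 and 2 in the mT6 knockouts. The mT69a controls had 2 and 4 such counts and the mT69a knockouts 2 and 0, which is too few to check the labels of that line. The libraries labelled for the SPDEF vector had 1 and 0 mouse Spdef counts in mT6 and 2 and 0 in mT69a, so the files do not show the vector's product, and these libraries are named by their label. A group of libraries stood apart by replicate number: mitochondrial transcripts took 12.7% to 15.5% of counts in the replicate 1 libraries and 18.6% to 27.1% in the replicate 2 libraries. The pair of mT69a control libraries also stood apart from each other, with a mean over the G1/S genes of 5.83 in replicate 1 and 5.47 in replicate 2 on a log2 scale of CPM (counts scaled to a fixed library total).

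Every one of the 47 genes was well expressed, with the smallest value in any library being 46 estimated counts, for E2f1. Levels per transcript length, averaged over the 12 libraries, were highest for Ccnd1 (cyclin D1) at 119 TPM, Top2a (topoisomerase II alpha) at 118 TPM and Pcna (the DNA polymerase clamp) at 114 TPM. E2f1 itself at 3.6 TPM, Ccne1 (cyclin E1) at 6.41 TPM and Cdc6 (a replication licensing factor) at 7.70 TPM were the lowest. From library to library the steadiest member was Top2a, whose highest CPM was 1.35 times its lowest. The ratio of highest to lowest CPM reached 3.37 for Rrm2, the regulated subunit of ribonucleotide reductase, 3.08 for Cdc20, an activator of the anaphase-promoting complex, and 3.02 for Kif23, a kinesin of the cytokinetic midbody.

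Promoters of 38 of the 47 genes were in the RefSeq set for GRCm38.p6, the build that the submitters' processing notes name. In the 250 bases before the transcription start, an E2F-type motif (TTTGGCGC, TTTCCCGC, TTTCGCGC or TTTGCCGC on either strand) was found in 5 of 17 G1/S genes and 1 of 20 G2/M genes, against 2.16% of 27025 genes. The cell cycle homology region of late genes (TTTGAA on either strand) was found in 2 of 17 G1/S genes and 7 of 20 G2/M genes, against 18.3% of all genes. CCAAT boxes (CCAAT on either strand) were present in 11 of 17 and 17 of 20, against 37.5% of all genes. The next 4 sequences are shown to give these elements in their place, 5′ to 3′ toward the start site, in the 2 carriers with the highest mean CPM among the G1/S genes with the E2F-type motif and the G2/M genes with TTTGAA. They were picked as carriers, and most genes of either class held no such match. Capitals mark the E2F-type motif in Mcm6 (chr1:128359706-128359955, minus strand) and Uhrf1 (chr17:56304063-56304312, plus strand), and the TTTGAA element in Mki67 (chr7:135716380-135716629, minus strand) and Top2a (chr11:99024190-99024439, minus strand). In Mcm6 the first capital run holds matches on both strands that overlap, and in Top2a the second holds the element on the opposite strand. None of these bases lay in an annotated exon, although the Uhrf1 stretch falls inside the span of the GENCODE gene, and a match is not evidence that a factor binds.
Mcm6: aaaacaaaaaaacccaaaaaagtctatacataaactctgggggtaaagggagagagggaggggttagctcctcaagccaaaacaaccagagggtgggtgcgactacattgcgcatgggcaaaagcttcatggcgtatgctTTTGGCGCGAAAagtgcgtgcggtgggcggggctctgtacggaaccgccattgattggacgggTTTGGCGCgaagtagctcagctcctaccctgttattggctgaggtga
Uhrf1: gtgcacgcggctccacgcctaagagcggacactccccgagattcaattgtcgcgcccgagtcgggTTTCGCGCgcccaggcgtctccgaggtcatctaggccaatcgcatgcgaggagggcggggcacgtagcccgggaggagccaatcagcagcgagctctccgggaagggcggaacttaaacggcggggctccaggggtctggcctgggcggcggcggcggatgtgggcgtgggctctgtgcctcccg
Mki67: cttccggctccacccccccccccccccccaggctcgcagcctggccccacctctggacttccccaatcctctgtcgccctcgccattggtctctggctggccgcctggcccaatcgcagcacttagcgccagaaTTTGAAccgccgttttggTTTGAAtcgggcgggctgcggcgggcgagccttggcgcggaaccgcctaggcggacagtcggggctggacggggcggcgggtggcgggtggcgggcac
Top2a: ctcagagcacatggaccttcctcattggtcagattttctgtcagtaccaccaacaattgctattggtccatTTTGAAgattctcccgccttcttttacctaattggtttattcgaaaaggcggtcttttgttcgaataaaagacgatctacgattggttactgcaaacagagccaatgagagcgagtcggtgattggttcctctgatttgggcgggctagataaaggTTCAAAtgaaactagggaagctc

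The first comparison asked which of the 47 genes differed between Spdef knockout and control organoids. Averaged over both lines, 2 of 47 were higher and none was lower, which is 4.26% of the genes against 5.6% of all genes tested. All other members had log2 fold changes between -0.24 and 0.34 and missed an adjusted p of 0.05. The median log2 fold change was -0.01 for the G1/S class, 0.08 for the G2/M class and 0.00 for all genes. Tests throughout are edgeR's quasi-likelihood test with Benjamini-Hochberg adjustment over all genes tested, on 2 libraries a group, and errors are standard errors (SE) unless stated.

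Cenpe, which encodes the kinetochore motor CENP-E that carries chromosomes to the spindle equator (ENSMUSG00000045328.11, chr3:135212537-135273611, plus strand), was the clearest of the 2. In mT6 it measured 93.8 and 107 CPM in the control, 147 and 170.2 CPM in the knockout and 168 and 188 CPM in the SPDEF vector libraries. In mT69a it measured 108 and 96.1 CPM in the control, 138 and 155 CPM in the knockout and 156 and 174 CPM in the SPDEF vector libraries. Every knockout and every SPDEF vector library lay above every control library, in both lines. The knockout level was 1.5-fold that of the control (log2 fold change 0.59 ± 0.10, adjusted p = 0.00608), with 0.66 ± 0.14 (adjusted p = 0.0328) in mT6 and 0.52 ± 0.14 (adjusted p = 0.0449) in mT69a on the log2 scale. The average held in all 12 fits that left out 1 library. Within lines the call was less firm: in mT6 it was lost when any 1 library other than mT6 SPDEF vector replicate 1, mT6 SPDEF vector replicate 2, mT69a control replicate 1, mT69a control replicate 2 and mT69a knockout replicate 1 was left out, with adjusted p up to 0.18, and in mT69a it was lost when any 1 library other than mT6 control replicate 1 and mT6 SPDEF vector replicate 1 was left out, with adjusted p up to 0.297.

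Ccnd1, the cyclin that opens G1, was the other (ENSMUSG00000070348.5, chr7:144929931-144939925, minus strand). It measured 248 and 216 CPM in the control, 267 and 302 CPM in the knockout and 253 and 304 CPM in the SPDEF vector libraries of mT6. In mT69a it measured 471 and 340.0 CPM in the control, 637 and 632 CPM in the knockout and 532 and 499 CPM in the SPDEF vector libraries. The knockout libraries were above the controls of their own line in both lines, although mT6 knockout replicate 1 stood only slightly above mT6 control replicate 1. The averaged log2 fold change was 0.47 ± 0.12 (adjusted p = 0.0489), with 0.30 ± 0.17 (adjusted p = 0.441) in mT6 and 0.65 ± 0.17 (adjusted p = 0.042) in mT69a. The average call was lost when any 1 library other than mT6 SPDEF vector replicate 1, mT6 SPDEF vector replicate 2 and mT69a control replicate 1 was left out, with adjusted p up to 0.162. In mT69a alone it was lost when any 1 library other than mT6 control replicate 1, mT6 control replicate 2, mT6 SPDEF vector replicate 1, mT6 SPDEF vector replicate 2 and mT69a control replicate 1 was left out, with adjusted p up to 0.301.

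With the replicate number as a block, 4 members passed in place of 2, against 15.0% of all genes. The added genes were Bub1, a spindle checkpoint kinase, at 0.34 ± 0.08 (adjusted p = 0.0119) and Mcm6, a subunit of the replicative helicase, at -0.24 ± 0.07 (adjusted p = 0.0289).

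**Figure D1:**
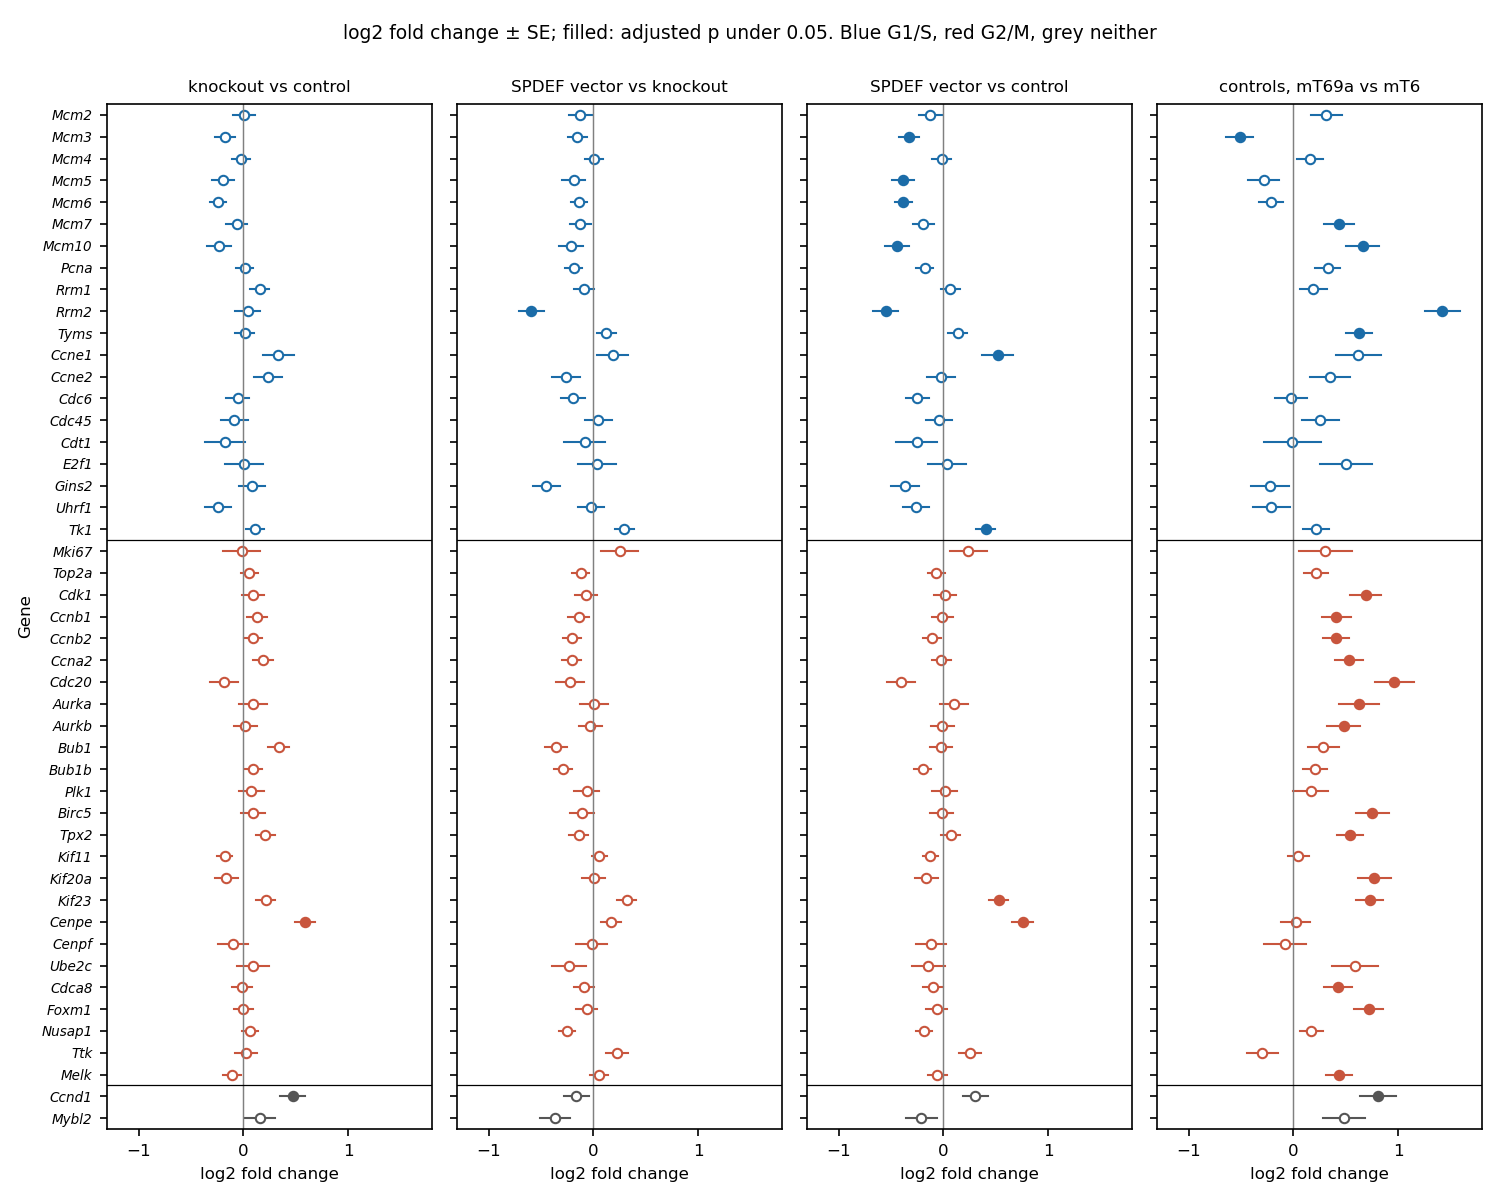
log2 fold change (x axis) of each of the 47 genes (rows) in 4 comparisons, with bars for ± 1 SE and filled points for adjusted p under 0.05. Few points are filled for the knockout or for the SPDEF vector against the knockout, 9 for the SPDEF vector against control and 20 for the control organoids of the 2 lines.

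Taken line by line, the knockout of mT6 had 1 member higher and 3 lower, 8.51% of the list against 3.23% of all genes. The 3 that fell were Mcm6, Uhrf1, which maintains DNA methylation behind the replication fork, and Kif11, the kinesin that pushes spindle poles apart. Mcm6 (ENSMUSG00000026355.11, chr1:128331590-128359664, minus strand) measured 166 and 163 CPM in the control, 117 and 112 CPM in the knockout and 109 and 108 CPM in the SPDEF vector libraries. Its log2 fold change in the knockout was -0.52 ± 0.11 (adjusted p = 0.0358). Uhrf1 (ENSMUSG00000001228.14, chr17:56303321-56323486, plus strand) measured 101 and 113 CPM in the control, 55.7 and 70.1 CPM in the knockout and 63.6 and 71.7 CPM in the SPDEF vector libraries. It fell to a level 1.7-fold lower in the knockout (log2 fold change -0.77 ± 0.18, adjusted p = 0.0455). Kif11 (ENSMUSG00000012443.3, chr19:37376403-37421859, plus strand) measured 155 and 157 CPM in the control, 114 and 115 CPM in the knockout and 119 and 124 CPM in the SPDEF vector libraries, a log2 difference of -0.45 ± 0.10 (adjusted p = 0.0472) for the knockout. For all 3 genes both knockout libraries and both SPDEF vector libraries lay below both controls.

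The genes of whole chromosomes were shifted in the same clone. Among the tested genes the median log2 fold change in the mT6 knockout was -0.28 on chromosome 1, -0.44 on chromosome 17 and -0.29 on chromosome 19, the chromosomes of Mcm6, Uhrf1 and Kif11. Of the 47 genes, 5 lie on chromosomes whose median moved by over 0.25, a limit chosen after the medians were seen, and the other 2 are Mcm3 at -0.51 ± 0.13 (adjusted p = 0.0657) and Cenpf at -0.29 ± 0.20 (adjusted p = 0.544). Among the 42 genes on the other chromosomes, Cenpe was called higher and none was called lower. When the median of each chromosome in each library was taken out as an offset, none of the 47 passed in the mT6 knockout, against 1.87% of all genes and 3 members at an unadjusted p under 0.05. The remainders were -0.21 ± 0.13 (adjusted p = 0.626) for Mcm6, -0.33 ± 0.19 (adjusted p = 0.572) for Uhrf1 and -0.17 ± 0.11 (adjusted p = 0.638) for Kif11. Cenpe was at 0.49 ± 0.13 (adjusted p = 0.1) and no longer passed. The number of gene copies was not measured, and the part of copy number in these falls was not tested. The falls were also sensitive to single libraries: that of Mcm6 was lost when any 1 library other than mT6 SPDEF vector replicate 1, mT6 SPDEF vector replicate 2, mT69a control replicate 1 and mT69a control replicate 2 was left out, with adjusted p up to 0.189; that of Uhrf1 was lost when any 1 library other than mT6 SPDEF vector replicate 1, mT69a knockout replicate 1 and mT69a knockout replicate 2 was left out, with adjusted p up to 0.281; that of Kif11 was lost in each of the 12 fits that left out 1 library, with adjusted p up to 0.256.

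With the replicate block 6 of 47 passed in the mT6 knockout, against 12.5% of all genes. Mcm5 at -0.49 ± 0.12 (adjusted p = 0.0202) and Mcm3 at -0.50 ± 0.11 (adjusted p = 0.011) joined the genes that fell. Both encode helicase subunits. The median of chromosome 8, which carries Mcm5, was -0.02. The level of Mcm5 in mT6 was 108 and 106 CPM in the control, 79.8 and 72.7 CPM in the knockout and 74.6 and 71.1 CPM in the SPDEF vector libraries.

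**Figure D2:**
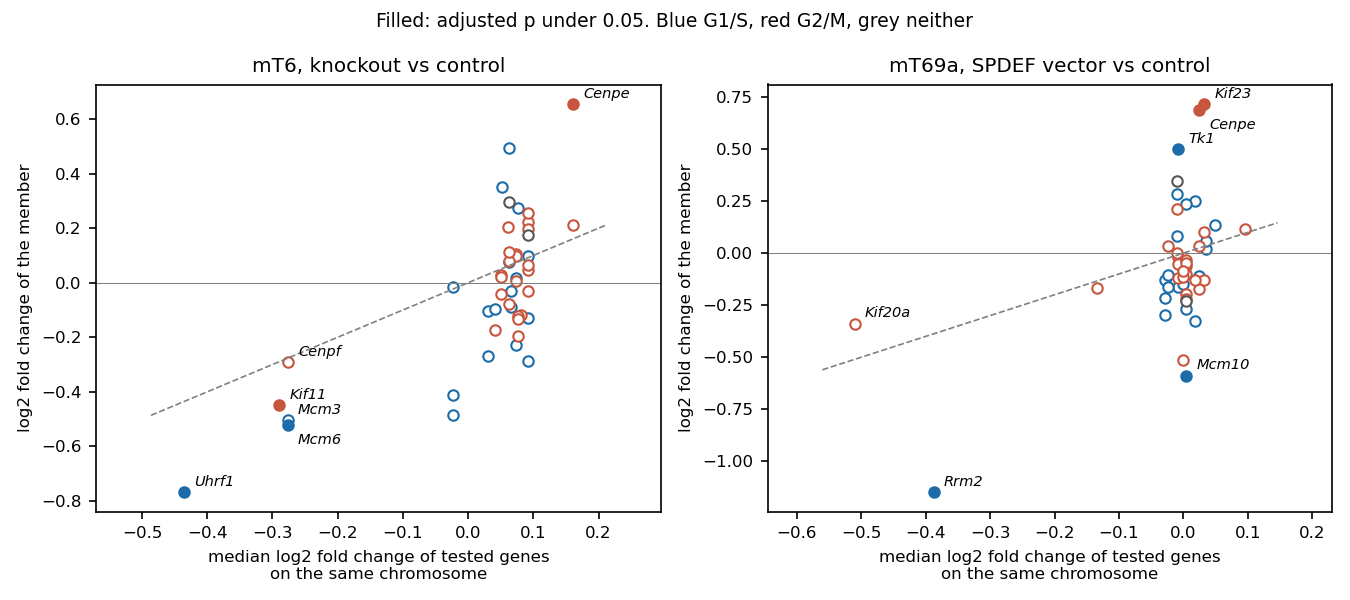
Each point is 1 of the 47 genes, placed by the median log2 fold change of tested genes on its chromosome (x axis) and by its own log2 fold change (y axis), with a dashed line where they are equal. In the mT6 knockout the 3 filled points below 0 (Mcm6, Uhrf1, Kif11) sit on chromosomes with medians from -0.44 to -0.28, and in the mT69a SPDEF vector organoids Rrm2 sits on chromosome 12 with a median of -0.39.

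In the mT69a knockout 2 of 47 genes were higher, Ccnd1 and Cenpe as given above, and none was lower, against 8.6% of all genes. With the block there were 4, against 16.0%, the added genes being Bub1 at 0.45 ± 0.11 (adjusted p = 0.0124) and Kif23 at 0.47 ± 0.10 (adjusted p = 0.00744). The effect of the knockout differed between lines for Uhrf1 alone, 1 of 47 against 6.62% of all genes. Uhrf1 in mT69a measured 102 and 83.5 CPM in the control, 96.4 and 130.1 CPM in the knockout and 103 and 101 CPM in the SPDEF vector libraries, so 1 knockout library lay between the controls and the other above them, while in mT6 both lay below. The difference of the 2 log2 fold changes was 1.05 ± 0.25 (adjusted p = 0.0313), and after removal of the chromosome medians it was 0.57 ± 0.27 (adjusted p = 0.347). This call was lost when any 1 library other than mT6 knockout replicate 2, mT6 SPDEF vector replicate 1, mT6 SPDEF vector replicate 2, mT69a control replicate 1 and mT69a knockout replicate 1 was left out, with adjusted p up to 0.134. Under the replicate block 8 members differed, against 15.2% of all genes. These were Uhrf1, Mcm3, Mcm4, Mcm5, Mcm6, Kif11 and Kif23 with a higher value in mT69a and Rrm2 with a lower one, at -0.61 ± 0.17 (adjusted p = 0.0272), and none of them passed once the chromosome medians were also taken out.

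The next comparison set the SPDEF vector organoids against the same KO1 clones with the empty vector. On average 1 of 47 genes changed, Rrm2, against 7.77% of all genes. Rrm2 (ENSMUSG00000020649.11, chr12:24708241-24714146, plus strand) supplies deoxyribonucleotides for S phase. In mT69a it measured 196 and 139 CPM in the control, 139 and 139 CPM in the knockout and 82.6 and 68.2 CPM in the SPDEF vector libraries. In mT6 it measured 66.9 and 58.1 CPM in the control, 80.4 and 78.9 CPM in the knockout and 66.2 and 62.7 CPM in the SPDEF vector libraries. All 4 SPDEF vector libraries were below the knockout libraries of their own line, and only in mT69a were they also below both controls. The average log2 fold change was -0.59 ± 0.12 (adjusted p = 0.0118), with -0.88 ± 0.17 (adjusted p = 0.0146) in mT69a and -0.31 ± 0.17 (adjusted p = 0.539) in mT6. That average was lost without mT69a SPDEF vector replicate 2 (adjusted p = 0.0702). In mT69a it was lost without mT69a knockout replicate 1 (adjusted p = 0.0892) or without mT69a SPDEF vector replicate 1 (adjusted p = 0.0591) or without mT69a knockout replicate 2 (adjusted p = 0.0891) or without mT69a SPDEF vector replicate 2 (adjusted p = 0.175).

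Rrm2 was also the only member called within mT69a, 1 of 47 against 4.25% of all genes, and within mT6 none was called, against 2.69%, with 4 members at an unadjusted p under 0.05. DESeq2 likewise called none in mT6. The difference in effect between lines was called for none of the 47 and for 0.0138% of all genes, with 1 member at an unadjusted p under 0.05 and none by DESeq2. For Rrm2 that difference was -0.57 ± 0.24 (adjusted p = 0.952). The remaining members had average log2 fold changes from -0.45 (Gins2, of the helicase activating GINS complex) to 0.32 (Kif23). Class medians were -0.13 for G1/S and -0.07 for G2/M, against -0.02 for all genes.

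The replicate block raised the count to 10 on average, 3 higher and 7 lower, against 15.8% of all genes. Higher were Tk1 (thymidine kinase) at 0.29 ± 0.08 (adjusted p = 0.0227), Mki67 at 0.25 ± 0.07 (adjusted p = 0.0197) and Kif23 at 0.32 ± 0.07 (adjusted p = 0.0108). Lower, besides Rrm2, were Gins2 at -0.45 ± 0.12 (adjusted p = 0.0214), Mybl2 (B-MYB) at -0.37 ± 0.10 (adjusted p = 0.0173), Bub1 at -0.36 ± 0.08 (adjusted p = 0.00789), Bub1b at -0.29 ± 0.07 (adjusted p = 0.0133), Nusap1 at -0.26 ± 0.07 (adjusted p = 0.02) and Cdc20 at -0.23 ± 0.07 (adjusted p = 0.0435). In mT69a 4 passed under the block, against 10.6%: Rrm2, Bub1 and Bub1b lower and Mki67 higher. In mT6 Kif23 alone passed, against 7.29%.

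The SPDEF vector organoids were then set against the controls, with which they share neither the clone nor the vector. This comparison shares its control libraries with the first and its vector libraries with the second. On average 9 of 47 genes differed, 4 higher and 5 lower, which is 19.1% against 14.5% of all genes. In the G1/S class 5 were lower and 2 higher of 20, and in the G2/M class 2 were higher and none lower of 25. Median log2 fold changes were -0.19 for G1/S, -0.02 for G2/M and -0.02 for all genes.

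The 5 that were lower, Rrm2, Mcm6, Mcm3, Mcm5 and Mcm10, have known roles in DNA synthesis. Rrm2 was 1.47-fold lower on average (log2 fold change -0.55 ± 0.12, adjusted p = 0.0113), and by line its log2 fold change was -1.15 ± 0.17 (adjusted p = 0.00135) in mT69a and 0.05 ± 0.17 (adjusted p = 0.921) in mT6. Chromosome 12, which carries Rrm2, had a median of -0.39 in mT69a, and with chromosome offsets the log2 fold change there was -0.79 ± 0.19 (adjusted p = 0.0214). With the same offsets Rrm2 did not pass on average over both lines. The average call was lost without mT69a SPDEF vector replicate 2 (adjusted p = 0.0656).

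Mcm6, whose mT6 values stand above, measured 153 and 131 CPM in the control, 142 and 149 CPM in the knockout and 127 and 126 CPM in the SPDEF vector libraries of mT69a, and its average log2 fold change was -0.38 ± 0.08 (adjusted p = 0.00977). Mcm3, another subunit of the hexamer (ENSMUSG00000041859.10, chr1:20802968-20820312, minus strand), measured 156 and 141 CPM in the control, 104 and 105 CPM in the knockout and 103 and 99.7 CPM in the SPDEF vector libraries of mT6. In mT69a Mcm3 measured 114 and 94 CPM in the control, 108 and 123 CPM in the knockout and 98.1 and 94.9 CPM in the SPDEF vector libraries. In mT69a the control and SPDEF vector libraries of Mcm3 overlapped, while in mT6 they did not. Its average log2 fold change was -0.33 ± 0.09 (adjusted p = 0.0378). Chromosome 1 holds both genes, and with its median taken out the averages were -0.21 ± 0.10 (adjusted p = 0.201) for Mcm6 and -0.16 ± 0.11 (adjusted p = 0.411) for Mcm3.

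Mcm5 (ENSMUSG00000005410.6, chr8:75109569-75128439, plus strand) had 100.1 and 75.1 CPM in the control, 88.8 and 98.6 CPM in the knockout and 80.8 and 69.8 CPM in the SPDEF vector libraries of mT69a, where control and SPDEF vector libraries overlapped, and the average was -0.38 ± 0.11 (adjusted p = 0.0374). Mcm10, which helps to switch the helicase on (ENSMUSG00000026669.14, chr2:4989714-5012791, minus strand), measured 22.6 and 26.2 CPM in the control, 20.6 and 24 CPM in the knockout and 19.4 and 20.3 CPM in the SPDEF vector libraries of mT6. In mT69a Mcm10 measured 42.2 and 35.2 CPM in the control, 27.4 and 34.1 CPM in the knockout and 24.7 and 26.9 CPM in the SPDEF vector libraries. The average for Mcm10 was -0.45 ± 0.11 (adjusted p = 0.0271), and in both lines the SPDEF vector libraries were below the controls. Leaving out single libraries touched these genes unequally. The call for Mcm6 was lost without mT69a SPDEF vector replicate 2 (adjusted p = 0.0573). That for Mcm10 was lost when any 1 library other than mT6 control replicate 1, mT6 knockout replicate 1, mT6 knockout replicate 2, mT69a control replicate 2, mT69a knockout replicate 1 and mT69a knockout replicate 2 was left out, with adjusted p up to 0.104. For Mcm3 it was lost when any 1 library other than mT69a control replicate 2 was left out, with adjusted p up to 0.146, and for Mcm5 it was lost when any 1 library other than mT69a control replicate 2 was left out, with adjusted p up to 0.165. The remaining subunits of the hexamer did not pass, with -0.12 ± 0.11 (adjusted p = 0.53) for Mcm2, -0.02 ± 0.09 (adjusted p = 0.937) for Mcm4 and -0.19 ± 0.10 (adjusted p = 0.266) for Mcm7.

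The 4 that were higher were Cenpe, Kif23, Tk1 and Ccne1. Cenpe was 1.69-fold higher on average (log2 fold change 0.75 ± 0.10, adjusted p = 0.000619), and was called in mT6 (0.82) and in mT69a (0.69). Kif23 (ENSMUSG00000032254.10, chr9:61915905-61946774, minus strand) measured 86 and 77.6 CPM in the control, 84.7 and 74.5 CPM in the knockout and 103 and 105 CPM in the SPDEF vector libraries of mT6. In mT69a Kif23 measured 149 and 123 CPM in the control, 184 and 191 CPM in the knockout and 221 and 225 CPM in the SPDEF vector libraries. All 4 SPDEF vector libraries were above the controls of their line, and in mT69a the knockout libraries lay between. The average for Kif23 was 0.53 ± 0.09 (adjusted p = 0.00326). Both averages held in all 12 fits that left out 1 library.

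Tk1, which salvages thymidine for S phase, measured 38.3 and 42.9 CPM in the control, 41.1 and 41.1 CPM in the knockout and 52.5 and 48 CPM in the SPDEF vector libraries of mT6. In mT69a Tk1 measured 51.3 and 42.9 CPM in the control, 52.7 and 55.5 CPM in the knockout and 68.5 and 64.7 CPM in the SPDEF vector libraries, and in both lines the SPDEF vector libraries were above the controls. Its average was 0.40 ± 0.09 (adjusted p = 0.0127) and was lost without mT6 control replicate 1 (adjusted p = 0.0504) or without mT69a SPDEF vector replicate 1 (adjusted p = 0.062). Ccne1, the cyclin that drives entry into S phase, measured 6.47 and 5.74 CPM in the control, 9.19 and 8.01 CPM in the knockout and 9.81 and 10.7 CPM in the SPDEF vector libraries of mT6. In mT69a Ccne1 measured 10.7 and 7.94 CPM in the control, 10.3 and 10.8 CPM in the knockout and 13.3 and 9.37 CPM in the SPDEF vector libraries. Its SPDEF vector libraries were above both controls in mT6 and overlapped them in mT69a. The average of 0.52 ± 0.15 (adjusted p = 0.0452) for Ccne1 was lost when any 1 library other than mT69a control replicate 1 and mT69a SPDEF vector replicate 2 was left out, with adjusted p up to 0.196.

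By line, 5 of 47 passed in mT6, against 8.6% of all genes. They were Cenpe higher and Mcm6, Mcm3, Uhrf1 and Mcm5 lower, with log2 fold changes of -0.60 ± 0.11 (adjusted p = 0.00992), -0.55 ± 0.13 (adjusted p = 0.0283), -0.67 ± 0.18 (adjusted p = 0.0451) and -0.55 ± 0.15 (adjusted p = 0.0499) in that order. The block gave 9 in mT6, against 19.0%, adding Ccne1 at 0.75 ± 0.19 (adjusted p = 0.0142), Kif23 at 0.34 ± 0.11 (adjusted p = 0.0391), Kif11 at -0.36 ± 0.09 (adjusted p = 0.0133) and Cdc20 at -0.31 ± 0.10 (adjusted p = 0.049). Chromosome 1, with Mcm6 and Mcm3, had a median of -0.31 in this mT6 comparison. The medians were -0.49 for chromosome 17 (Uhrf1), -0.30 for chromosome 19 (Kif11) and -0.02 for chromosome 8 (Mcm5). In mT69a 5 passed, against 12.4%: Kif23, Cenpe and Tk1 higher and Rrm2 and Mcm10 lower. The block gave 7 in mT69a, against 22.5%, adding Kif20a at -0.33 ± 0.11 (adjusted p = 0.0382) and Cdc20 at -0.51 ± 0.10 (adjusted p = 0.00186). The median of chromosome 18, which carries Kif20a, was -0.51 in mT69a. The calls within lines had unequal support. In mT6 Cenpe held in all 12 fits that left out 1 library. Mcm6 was lost without mT6 control replicate 1 (adjusted p = 0.0604) or without mT6 SPDEF vector replicate 1 (adjusted p = 0.0508) or without mT6 SPDEF vector replicate 2 (adjusted p = 0.0599). Mcm3 was lost when any 1 library other than mT6 knockout replicate 1, mT6 knockout replicate 2, mT69a control replicate 1, mT69a control replicate 2, mT69a knockout replicate 1 and mT69a knockout replicate 2 was left out, with adjusted p up to 0.152. Uhrf1 was lost when any 1 library other than mT6 knockout replicate 1, mT6 knockout replicate 2, mT69a knockout replicate 1 and mT69a knockout replicate 2 was left out, with adjusted p up to 0.189, and Mcm5 was lost when any 1 library other than mT69a control replicate 1 and mT69a control replicate 2 was left out, with adjusted p up to 0.194. In mT69a Kif23 and Rrm2 held in all 12 such fits, while Cenpe was lost without mT69a control replicate 2 (adjusted p = 0.0769) or without mT69a SPDEF vector replicate 2 (adjusted p = 0.084). There Tk1 was lost without mT69a SPDEF vector replicate 1 (adjusted p = 0.175) or without mT69a control replicate 2 (adjusted p = 0.17) or without mT69a SPDEF vector replicate 2 (adjusted p = 0.0999), and Mcm10 was lost without mT69a control replicate 1 (adjusted p = 0.216) or without mT69a SPDEF vector replicate 1 (adjusted p = 0.22) or without mT69a control replicate 2 (adjusted p = 0.0544) or without mT69a SPDEF vector replicate 2 (adjusted p = 0.126).

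With chromosome medians as offsets 6 genes passed on average, against 12.3% of all genes: Cenpe, Kif23 and Tk1 higher, and Mcm5, Mcm10 and Cdc20 lower, the last at -0.44 ± 0.12 (adjusted p = 0.0431). With the replicate block 12 of 47 passed on average, against 25.4% of all genes. The added genes were Cdc20 at -0.41 ± 0.07 (adjusted p = 0.000811), Mki67 at 0.23 ± 0.07 (adjusted p = 0.0196) and Gins2 at -0.37 ± 0.12 (adjusted p = 0.0357).

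Several familiar proliferation markers passed in none of these comparisons without the replicate block. Mki67, the Ki-67 antigen, measured 428 and 622 CPM in the control, 477 and 633 CPM in the knockout and 535 and 722 CPM in the SPDEF vector libraries of mT6. In mT69a Mki67 measured 599.9 and 698 CPM in the control, 517 and 685 CPM in the knockout and 644 and 862 CPM in the SPDEF vector libraries. In all 6 groups the replicate 2 library of Mki67 was the higher. Its average log2 fold change was -0.02 ± 0.18 (adjusted p = 0.989) for knockout against control and 0.24 ± 0.18 (adjusted p = 0.443) for the SPDEF vector against control. Top2a measured 427 and 407 CPM in the control, 444 and 395 CPM in the knockout and 387 and 402 CPM in the SPDEF vector libraries of mT6. In mT69a Top2a measured 497 and 470.3 CPM in the control, 521 and 516 CPM in the knockout and 448 and 484 CPM in the SPDEF vector libraries. The knockout libraries of Top2a lay on both sides of the controls in mT6 and slightly above them in mT69a. Pcna measured 133 and 125 CPM in the control, 142 and 135 CPM in the knockout and 117 and 125 CPM in the SPDEF vector libraries of mT6. In mT69a Pcna measured 173 and 150.3 CPM in the control, 146 and 161 CPM in the knockout and 133 and 135 CPM in the SPDEF vector libraries. Those of Pcna were above the controls in mT6 and overlapped them in mT69a. For Top2a and Pcna the average log2 fold changes between knockout and control were 0.05 ± 0.08 (adjusted p = 0.812) and 0.01 ± 0.08 (adjusted p = 0.98). Mcm2 measured 45.5 and 56.1 CPM in the control, 49.7 and 45.6 CPM in the knockout and 44.4 and 48.1 CPM in the SPDEF vector libraries of mT6. In mT69a Mcm2 measured 71 and 55.6 CPM in the control, 63.4 and 72.8 CPM in the knockout and 57.6 and 59.8 CPM in the SPDEF vector libraries. Knockout and control ranges of Mcm2 overlapped in both lines.

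Among the regulators, E2f1 measured 6.24 and 7.6 CPM in the control, 5.48 and 5.9 CPM in the knockout and 5.37 and 7.04 CPM in the SPDEF vector libraries of mT6. In mT69a E2f1 measured 12.5 and 7.2 CPM in the control, 12.1 and 12.1 CPM in the knockout and 12.4 and 10.8 CPM in the SPDEF vector libraries. The knockout libraries of E2f1 were below both controls in mT6 and lay between the controls in mT69a. Foxm1, the activator of mitotic genes, measured 21.1 and 23.3 CPM in the control, 19.9 and 19.6 CPM in the knockout and 20.3 and 19.5 CPM in the SPDEF vector libraries of mT6. In mT69a Foxm1 measured 40.2 and 33 CPM in the control, 40.5 and 41.9 CPM in the knockout and 40.5 and 34.2 CPM in the SPDEF vector libraries. For Foxm1 the knockout libraries lay below the controls in mT6 and above them in mT69a. Ccnb1, the mitotic cyclin B1, measured 88.5 and 79.6 CPM in the control, 99.3 and 82.3 CPM in the knockout and 95.9 and 85.5 CPM in the SPDEF vector libraries of mT6. In mT69a Ccnb1 measured 121 and 102 CPM in the control, 126 and 122 CPM in the knockout and 104 and 100.1 CPM in the SPDEF vector libraries. For Foxm1 and Ccnb1 every mT69a library was above every mT6 library, and for E2f1 mT69a control replicate 2 fell within the mT6 range. Their average log2 fold changes for the knockout were 0.00 ± 0.18 (adjusted p = 1) for E2f1, 0.00 ± 0.09 (adjusted p = 1) for Foxm1 and 0.13 ± 0.10 (adjusted p = 0.541) for Ccnb1.

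The classes were also set against each other as means over their genes. The mean log2 CPM of the G1/S class in mT6 was 5.43 in both controls, 5.31 and 5.29 in the knockouts and 5.25 and 5.28 in the SPDEF vector libraries. For the G2/M class in mT6 it was 6.01 in both controls, 6.10 and 5.97 in the knockouts and 6.07 and 6.01 in the SPDEF vector libraries. The G1/S level was thus below both controls in the other 4 mT6 libraries, while the G2/M level lay on both sides of them. The G1/S minus G2/M difference in mT6 was -0.58 and -0.57 in the controls, -0.78 and -0.69 in the knockouts and -0.81 and -0.73 in the SPDEF vector libraries. In mT69a that difference was -0.70 and -0.81 in the controls, -0.83 and -0.72 in the knockouts and -0.78 and -0.89 in the SPDEF vector libraries, which overlap. The 5 genes on shifted chromosomes count in the mT6 values, and their part in the class mean was not tested. No test is given for these scores, because the classes were chosen with results of the data known.

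**Figure D3:**
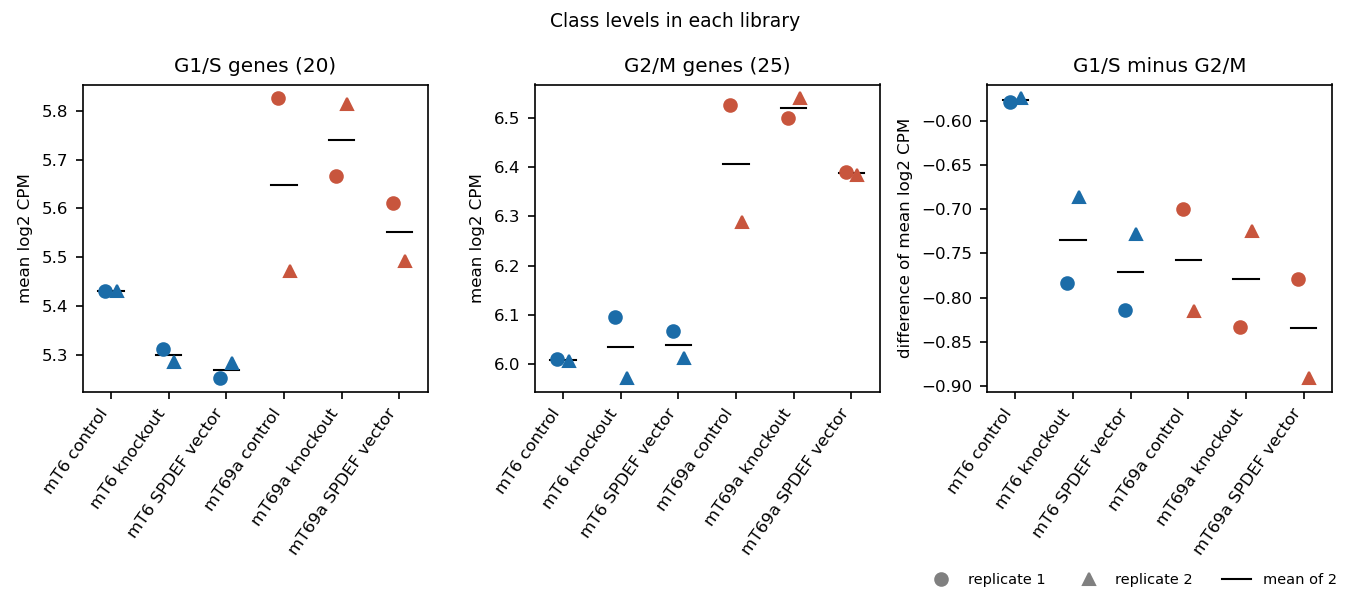
Mean log2 CPM of the 20 G1/S genes (left), the 25 G2/M genes (middle) and their difference (right) in each library, with circles for replicate 1, triangles for replicate 2 and lines for the mean of 2. The 6 mT69a libraries lie above the 6 mT6 libraries in both classes, and the mT69a controls lie at 5.83 and 5.47 for G1/S.

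The widest differences in these genes were between the lines. Among the controls, 20 of 47 genes differed, 19 higher in mT69a and 1 lower, which is 42.6% against 28.2% of all genes, and the 19 compare with 13.4% of all genes called higher in mT69a. By class 14 of 25 G2/M genes were higher and none lower, and 4 of 20 G1/S genes were higher and 1 lower. The median log2 fold change was 0.42 for the G2/M class, 0.23 for the G1/S class and -0.03 for all genes.

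Across all 6 libraries of each line, not only the controls, 15 of 25 G2/M genes and 2 of 20 G1/S genes had every mT69a library above every mT6 library in CPM, against 8.23% of all genes, with no test made. Among the 47, the kinetochore kinase gene Ttk alone had every mT69a library below every mT6 library, against 9.04% of all genes. Ttk ranged from 19.1 to 22.5 CPM in mT69a and from 25 to 37.6 CPM in mT6.

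In order of adjusted p, Rrm2, whose values are given above, came first at 1.42 ± 0.17 (adjusted p = 0.000217), a 2.68-fold higher level in the mT69a controls. Kif23 followed at 0.73 ± 0.13 (adjusted p = 0.00233). Foxm1 was at 0.72 ± 0.14 (adjusted p = 0.00379). Further down the order, Ccnd1 was at 0.81 ± 0.17 (adjusted p = 0.00594) and Mcm10 at 0.66 ± 0.16 (adjusted p = 0.0112). Cdc20, Tyms, Kif20a and Birc5, given below, came before both.

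Cdc20 measured 64.8 and 53.8 CPM in the control, 59.7 and 49.2 CPM in the knockout and 53.4 and 42.8 CPM in the SPDEF vector libraries of mT6. In mT69a Cdc20 measured 132 and 99.3 CPM in the control, 101 and 92.9 CPM in the knockout and 89.6 and 71.9 CPM in the SPDEF vector libraries, and the lines did not overlap. The control difference in Cdc20 was 0.96 ± 0.19 (adjusted p = 0.004). Tyms, which makes thymidylate, measured 29.7 and 27.6 CPM in the control, 27.4 and 26.5 CPM in the knockout and 28 and 30.0 CPM in the SPDEF vector libraries of mT6. In mT69a Tyms measured 48.4 and 40.2 CPM in the control, 45.4 and 50.5 CPM in the knockout and 52.8 and 52.7 CPM in the SPDEF vector libraries. Every mT69a library of Tyms was above every mT6 library. That is a log2 difference of 0.63 ± 0.13 (adjusted p = 0.00445) between the controls. Birc5 (survivin, of the chromosomal passenger complex) measured 35.5 and 32.9 CPM in the control, 40.6 and 33 CPM in the knockout and 37.6 and 34.8 CPM in the SPDEF vector libraries of mT6. In mT69a Birc5 measured 65.4 and 49.8 CPM in the control, 56.3 and 65.2 CPM in the knockout and 54.1 and 51.7 CPM in the SPDEF vector libraries. The lines did not overlap in Birc5 either. Its control difference was 0.75 ± 0.16 (adjusted p = 0.00582).

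Cdk1, the kinase of mitotic entry, measured 58.9 and 58.5 CPM in the control, 70.3 and 65.1 CPM in the knockout and 75.4 and 59.5 CPM in the SPDEF vector libraries of mT6. In mT69a Cdk1 measured 105 and 84 CPM in the control, 93.1 and 92.6 CPM in the knockout and 86 and 82.8 CPM in the SPDEF vector libraries. The mT6 and mT69a libraries of Cdk1 did not overlap. Its difference between controls was 0.69 ± 0.15 (adjusted p = 0.006). Tpx2, a spindle assembly factor that activates Aurora A, measured 74.9 and 72.4 CPM in the control, 95.9 and 80.3 CPM in the knockout and 84.1 and 81.9 CPM in the SPDEF vector libraries of mT6. In mT69a Tpx2 measured 115 and 99.4 CPM in the control, 116 and 123 CPM in the knockout and 103 and 107 CPM in the SPDEF vector libraries. The lowest mT69a library of Tpx2 was control replicate 2, just above the highest mT6 library, knockout replicate 1. The controls differed by 0.54 ± 0.13 (adjusted p = 0.0098) in Tpx2. Ccna2, cyclin A2, measured 108 and 105 CPM in the control, 132 and 115 CPM in the knockout and 114 and 120.0 CPM in the SPDEF vector libraries of mT6. In mT69a Ccna2 measured 171 and 138 CPM in the control, 167 and 178 CPM in the knockout and 139 and 134 CPM in the SPDEF vector libraries. Its log2 difference between the controls was 0.53 ± 0.13 (adjusted p = 0.0137). In Ccna2 the lines came close to each other without overlap.

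Kif20a, a kinesin of the central spindle, measured 54.2 and 52.7 CPM in the control, 55.4 and 43.4 CPM in the knockout and 57.7 and 50.3 CPM in the SPDEF vector libraries of mT6. In mT69a Kif20a measured 103 and 79.9 CPM in the control, 81.4 and 76.6 CPM in the knockout and 75 and 69.5 CPM in the SPDEF vector libraries. Here too the lines did not overlap. Its control difference was 0.77 ± 0.16 (adjusted p = 0.00499). The median of its chromosome, 18, was 0.55, and with chromosome offsets the difference was 0.22 ± 0.15 (adjusted p = 0.309). The other genes called higher were Melk, Ccnb2, Aurka, Cdca8, Aurkb, Mcm7 and Ccnb1, with log2 fold changes of 0.44, 0.40, 0.62, 0.42, 0.48, 0.43 and 0.41 in that order. Mcm3 was lower, at -0.51 ± 0.13 (adjusted p = 0.0144), on chromosome 1 with a median of -0.35. Mki67 at 0.31 ± 0.25 (adjusted p = 0.403), Pcna at 0.33 ± 0.12 (adjusted p = 0.0633) and Ccne1 at 0.62 ± 0.21 (adjusted p = 0.0516) did not pass. With the replicate block, under which 25 of 47 passed against 41.8% of all genes, these 3 did, at 0.33 ± 0.09 (adjusted p = 0.0125), 0.33 ± 0.10 (adjusted p = 0.0207) and 0.61 ± 0.18 (adjusted p = 0.0154), as did Ube2c at 0.57 ± 0.12 (adjusted p = 0.00173) and Mybl2 at 0.47 ± 0.13 (adjusted p = 0.0116).

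How many genes passed depended on the control libraries of both lines. Without mT69a control replicate 1, 6 of 47 passed, against 13.5% of all genes. Without mT69a control replicate 2, 24 did, against 21.9%. Rrm2, Kif23, Foxm1, Cdc20 and Tyms held in all 12 fits that left out 1 library. Kif20a, Birc5, Ccnd1 and Cdk1 were lost without mT69a control replicate 1 alone, with adjusted p up to 0.0623. Tpx2 was lost without mT69a control replicate 1 (adjusted p = 0.0828) or without mT6 control replicate 2 (adjusted p = 0.0609). Mcm10 was lost without mT6 control replicate 1 (adjusted p = 0.0704) or without mT69a control replicate 1 (adjusted p = 0.093). Ccna2 was lost without mT6 control replicate 1 (adjusted p = 0.0523) or without mT69a control replicate 1 (adjusted p = 0.121) or without mT6 control replicate 2 (adjusted p = 0.0741). Mcm3 was lost without mT6 control replicate 1 (adjusted p = 0.09) or without mT69a control replicate 2 (adjusted p = 0.118). Aurka was lost without mT6 control replicate 1 (adjusted p = 0.0789) or without mT69a control replicate 1 (adjusted p = 0.268) or without mT6 control replicate 2 (adjusted p = 0.151). Melk was lost without mT6 control replicate 1 (adjusted p = 0.0868) or without mT69a control replicate 1 (adjusted p = 0.185) or without mT6 control replicate 2 (adjusted p = 0.101). Cdca8 was lost without mT6 control replicate 1 (adjusted p = 0.139) or without mT69a control replicate 1 (adjusted p = 0.25) or without mT6 control replicate 2 (adjusted p = 0.106) or without mT69a knockout replicate 2 (adjusted p = 0.0568). Ccnb2 was lost without any 1 of mT6 control replicate 1, mT69a control replicate 1, mT69a SPDEF vector replicate 1, mT6 control replicate 2 and mT69a control replicate 2, with adjusted p up to 0.148. Aurkb was lost when any 1 library other than mT6 knockout replicate 1, mT6 knockout replicate 2, mT6 SPDEF vector replicate 1, mT6 SPDEF vector replicate 2 and mT69a control replicate 2 was left out, with adjusted p up to 0.31. Ccnb1 was lost when any 1 library other than mT6 knockout replicate 1, mT6 knockout replicate 2, mT6 SPDEF vector replicate 1, mT6 SPDEF vector replicate 2 and mT69a control replicate 2 was left out, with adjusted p up to 0.291. Mcm7 was lost when any 1 library other than mT6 knockout replicate 2, mT6 SPDEF vector replicate 2, mT69a control replicate 2 and mT69a knockout replicate 1 was left out, with adjusted p up to 0.34. Without mT6 control replicate 1, 10 of 47 passed, against 19.3% of all genes, and without mT6 control replicate 2, 11 did, against 17.5%. With chromosome offsets 12 passed, all higher, against 23.8% of all genes. Within replicate 1, the median log2 ratio of the mT69a to the mT6 control was 0.56 for the G2/M genes and 0.40 for the G1/S genes. Within replicate 2 these medians were 0.30 and -0.01. The mT69a minus mT6 difference of the class means was also positive in the other groups. In replicates 1 and 2 of the knockouts it was 0.40 and 0.57 for G2/M and 0.35 and 0.53 for G1/S. In the SPDEF vector libraries it was 0.32 and 0.37 for G2/M and 0.36 and 0.21 for G1/S.

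**Figure D4:**
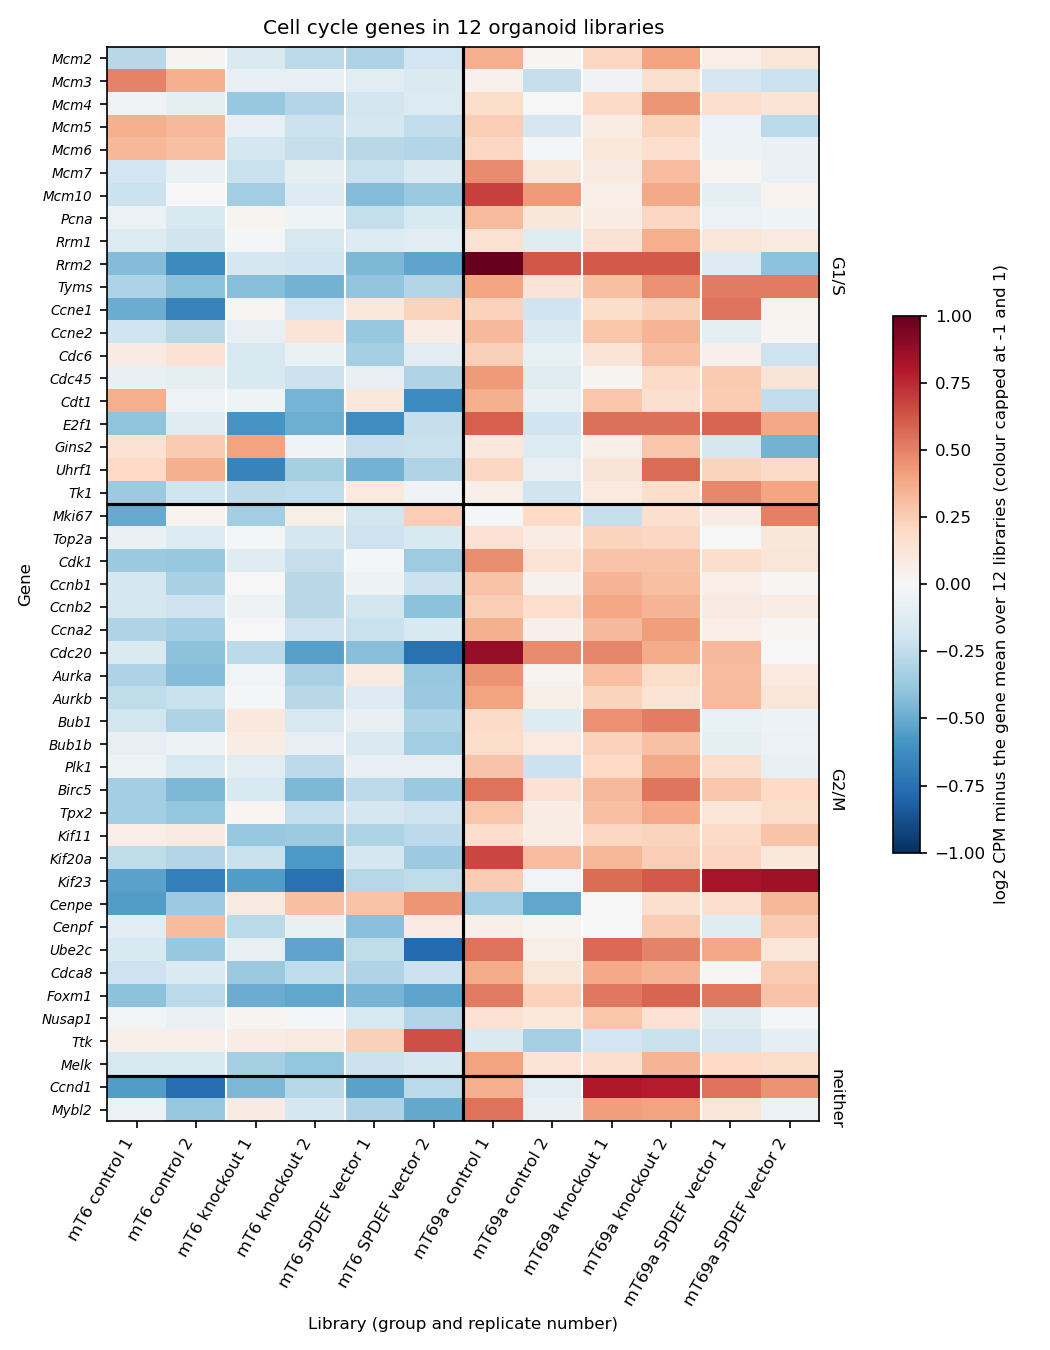
Each row is 1 of the 47 genes and each column 1 library, and colour gives log2 CPM minus the mean of that gene over the 12 libraries, capped at -1 and 1. The mT69a columns are redder than the mT6 columns through most of the G2/M block, and Cenpe, Mcm3, Mcm5 and Mcm6 separate the mT6 controls from the other mT6 libraries.

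Replicate number had its own difference in these genes. Between replicate 2 and replicate 1, fitted beside the 6 groups, 8 of 47 passed, 2 higher and 6 lower, which is 17.0% against 26.0% of all genes. Mki67 at 0.40 ± 0.05 (adjusted p = 0.000715) and Cenpf at 0.28 ± 0.07 (adjusted p = 0.0128) were higher in replicate 2. Cenpf, a large kinetochore and nuclear matrix protein, measured 102 and 137 CPM in the control, 91.4 and 104 CPM in the knockout and 82.4 and 116 CPM in the SPDEF vector libraries of mT6. In mT69a Cenpf measured 114 and 112 CPM in the control, 110.1 and 131 CPM in the knockout and 101 and 131 CPM in the SPDEF vector libraries. In 5 of 6 groups the replicate 2 library of Cenpf was the higher.

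Lower were Cdt1, the licensing factor that loads MCM, at -0.42 ± 0.08 (adjusted p = 0.00364), Cdc20 at -0.28 ± 0.06 (adjusted p = 0.0047) and Ube2c, the E2 enzyme of the anaphase-promoting complex, at -0.33 ± 0.07 (adjusted p = 0.00558). Also lower were Aurka (Aurora A kinase) at -0.27 ± 0.06 (adjusted p = 0.0111), Mybl2 at -0.27 ± 0.08 (adjusted p = 0.0244) and Kif20a at -0.19 ± 0.06 (adjusted p = 0.0379). The replicate difference of Cenpf was lost without mT6 control replicate 1 (adjusted p = 0.0535) or without mT6 control replicate 2 (adjusted p = 0.0522). That of Mybl2 was lost when any 1 library other than mT6 SPDEF vector replicate 1, mT6 SPDEF vector replicate 2, mT69a knockout replicate 1, mT69a knockout replicate 2, mT69a SPDEF vector replicate 1 and mT69a SPDEF vector replicate 2 was left out, with adjusted p up to 0.0712, and that of Kif20a was lost when any 1 library other than mT6 control replicate 1, mT6 control replicate 2, mT69a knockout replicate 1 and mT69a knockout replicate 2 was left out, with adjusted p up to 0.149. Cdt1 measured 33.4 and 25.1 CPM in the control, 25.2 and 18.8 CPM in the knockout and 27.9 and 16.8 CPM in the SPDEF vector libraries of mT6. In mT69a Cdt1 measured 33.2 and 24.7 CPM in the control, 31.4 and 29 CPM in the knockout and 30.9 and 21.9 CPM in the SPDEF vector libraries, with replicate 2 below replicate 1 in every group. Ube2c measured 55 and 47.1 CPM in the control, 57.8 and 42.4 CPM in the knockout and 51.4 and 35.8 CPM in the SPDEF vector libraries of mT6. In mT69a Ube2c measured 89.5 and 63.8 CPM in the control, 90.8 and 86.6 CPM in the knockout and 80.3 and 66.7 CPM in the SPDEF vector libraries, again with replicate 2 the lower in every group. Aurka measured 36.8 and 33.8 CPM in the control, 44.7 and 36.3 CPM in the knockout and 48.6 and 35.1 CPM in the SPDEF vector libraries of mT6. In mT69a Aurka measured 62.2 and 46.5 CPM in the control, 56.1 and 51.8 CPM in the knockout and 56.3 and 48.8 CPM in the SPDEF vector libraries. The replicate 2 library of Aurka was the lower in every group. Mybl2 measured 31.4 and 25.2 CPM in the control, 34.6 and 29.1 CPM in the knockout and 26.5 and 23 CPM in the SPDEF vector libraries of mT6. In mT69a Mybl2 measured 47.7 and 31.1 CPM in the control, 43.9 and 43.4 CPM in the knockout and 35.8 and 31.5 CPM in the SPDEF vector libraries. For Mybl2 too, replicate 2 was the lower in all 6 groups.

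The signed log2 fold change of replicate 2 over replicate 1 rose with transcript length among the 47 genes. Spearman's rho was 0.49 against mean effective length and Pearson's r 0.62 against its log2. The 47 genes share the same 12 libraries and are not independent. Over all 14473 tested genes the values were 0.10 and 0.07. Mki67, Cenpf and Cenpe have the longest transcripts of the list. Their part in the replicate difference beyond length, and that of the mitochondrial share given above, was not tested.

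**Figure D5:**
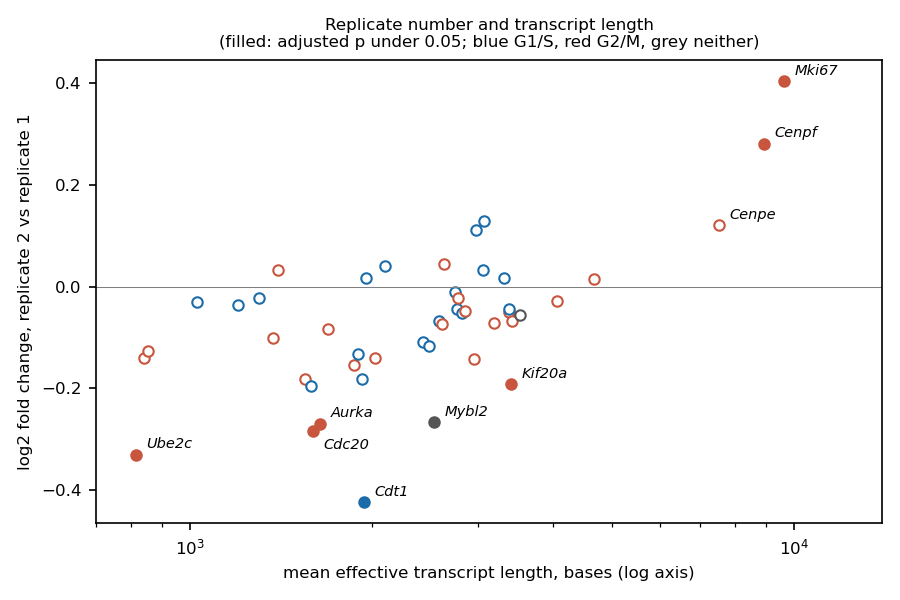
Mean effective transcript length in bases (log x axis) against the log2 fold change of replicate 2 over replicate 1 (y axis) for the 47 genes, filled where adjusted p was under 0.05. The long transcripts Mki67 (0.40) and Cenpf (0.28) lie at the upper right, and Cdt1 (-0.42) and Ube2c (-0.33) are lowest.

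A set of 4 wider lists around the 47 genes was read in the same fits, as counts beside the shares of all genes given for each comparison. Of 49 further replication genes, none was higher and 1 lower in the knockout on average, against 5.6% of all genes. In the SPDEF vector organoids against control 1 was higher and 3 lower, against 14.5% of all genes. The 1 in the knockout was Pole2, a subunit of DNA polymerase epsilon, at -0.46 ± 0.10 (adjusted p = 0.0199), where the median of its chromosome, 12, was -0.14. In the SPDEF vector organoids against control, Pola2, of the primase complex, was at -0.60 ± 0.10 (adjusted p = 0.00212), Pole2 at -0.43 ± 0.10 (adjusted p = 0.0139), Chaf1a, a histone chaperone, at -0.48 ± 0.12 (adjusted p = 0.0216) on chromosome 17 with a median of -0.22, and Dbf4, the activator of the CDC7 kinase, at 0.32 ± 0.08 (adjusted p = 0.0292). For the SPDEF vector against control, the median of chromosome 12, with Pole2, was -0.18 on average, -0.39 in mT69a and 0.06 in mT6. That of chromosome 17 was -0.49 in mT6 and 0.05 in mT69a. Between the SPDEF vector and the knockout, on average, none of the 49 passed with edgeR or DESeq2, against 7.77% of all genes with edgeR. At an unadjusted p under 0.05 were 7 and 5. Between the controls 9 were higher in mT69a and 2 lower, against 28.2% of all genes. The replicate block moved all 4 counts. With it none was higher and 5 lower in the knockout, against 15.0% of all genes. In the SPDEF vector organoids 1 was higher and 2 lower against the knockout, where 15.8% of all genes were called. Against control 2 were higher and 5 lower (25.4% of all genes), and between the controls 15 were higher and 3 lower (41.8%).

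Of 53 further mitotic genes, 2 were higher in the knockout on average, against 5.6% of all genes. They were Anln (anillin, of the cleavage furrow) at 0.49 ± 0.09 (adjusted p = 0.00795) and Ckap2l (a spindle protein) at 0.42 ± 0.09 (adjusted p = 0.0183). Against the knockout, the SPDEF vector organoids had 4 higher and 1 lower, where 7.77% of all genes were called. Cep55, of the midbody, was at 0.49 ± 0.11 (adjusted p = 0.024), Sgo2a, a protector of centromeric cohesion, at 0.34 ± 0.08 (adjusted p = 0.0248), the chromokinesin Kif4 at 0.31 ± 0.08 (adjusted p = 0.0427) and the phosphatase Cdc25b at 0.58 ± 0.15 (adjusted p = 0.0449), while Ckap2l was lower at -0.32 ± 0.09 (adjusted p = 0.0475). Against control there were 7 higher and 5 lower (14.5% of all genes), led by Cep55 at 0.68 ± 0.11 (adjusted p = 0.0027). With the replicate block 5 of the 53 were higher and 2 lower in the knockout, against 15.0% of all genes. The SPDEF vector organoids then had 5 higher and 3 lower against the knockout (15.8% of all genes). Against control they had 9 higher and 10 lower (25.4% of all genes), so that the balance of directions turned. Between the controls 17 were higher in mT69a and 2 lower, against 28.2% of all genes, or 24 and 3 with the block, against 41.8%. The widest of these was Pttg1 (securin), at 3.18 ± 0.24 (adjusted p = 1.11e-05), and Hjurp, the CENP-A chaperone, was lower at -0.86 ± 0.11 (adjusted p = 0.000313) on chromosome 1, with a median of -0.35.

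Of 16 regulators of G1, 15 were measured. Ccnd2 (cyclin D2) was lower in the knockout at -0.80 ± 0.14 (adjusted p = 0.00858) and in the SPDEF vector organoids against control at -1.20 ± 0.14 (adjusted p = 0.000379), the opposite side to Ccnd1 in the knockout. Between the SPDEF vector and the knockout, E2f2 was lower at -0.77 ± 0.12 (adjusted p = 0.00357) and Cdk6 lower at -0.35 ± 0.07 (adjusted p = 0.016), while Cdk2 was higher at 0.50 ± 0.09 (adjusted p = 0.00591). Between the controls 5 were higher in mT69a and 1 lower, against 28.2% of all genes. The E2F repressor E2f7 was at 1.35 ± 0.18 (adjusted p = 0.00046) and cyclin D3 (Ccnd3) at -0.75 ± 0.22 (adjusted p = 0.0291), on chromosome 17 with a median of -0.43.

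Of 12 brakes on the cycle, Rb1, the retinoblastoma gene, was lower in the knockout on average at -0.54 ± 0.14 (adjusted p = 0.0489) and lower in the SPDEF vector organoids against control at -0.48 ± 0.14 (adjusted p = 0.0455). The CDK inhibitor Cdkn1c was higher there at 0.92 ± 0.26 (adjusted p = 0.0383). With the block 1 brake was higher and 3 lower there, against 25.4% of all genes, in place of 1 and 1, against 14.5%. Between the SPDEF vector and the knockout none of the 12 passed on average over both lines. That held for edgeR with or without the block and for DESeq2, and none had an unadjusted p under 0.05 without the block. Within mT6 1 was higher with the block, against 7.29% of all genes, and 2 had an unadjusted p under 0.05 without it. The median of chromosome 14, which carries Rb1, was -0.16 for the knockout and -0.19 for the SPDEF vector. Between the controls Rb1 was higher in mT69a at 1.67 ± 0.19 (adjusted p = 0.000191), as was Cdkn2d at 0.67 ± 0.15 (adjusted p = 0.00867), and Cdkn1b at -0.63 ± 0.11 (adjusted p = 0.0017) and Cdkn1c at -1.33 ± 0.36 (adjusted p = 0.0202) were lower. With replicate number 3 brakes were lower in replicate 2, against 26.0% of all genes called. They were Cdkn1a (p21) at -1.46 ± 0.32 (adjusted p = 0.0234), Cdkn1c at -0.55 ± 0.12 (adjusted p = 0.00783) and Cdkn2b at -0.41 ± 0.11 (adjusted p = 0.019).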

How the data were processed

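Stranded total RNA libraries (TruSeq Stranded Total RNA, per the labels) were made from 12 organoid samples in 6 groups of 2. Per the submitters' processing notes, FastQC 0.11.8, STAR 2.5.2b and RSEM 1.3.0 were used with GRCm38.p6. The authors made expected counts and TPM values per gene with RSEM and deposited both, per the file headers. Of 53715 gene IDs, 53620 matched GENCODE M21, and 95 were left without a symbol.

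Estimated counts were rounded and fitted with edgeR 4.0.16 in R 4.3.3 (quasi-likelihood test with robust dispersion, TMM factors of 0.839 to 1.20, default count filter by group, 14473 genes), with 1 mean per group over all 12 libraries and 6 residual degrees of freedom. Calls are two-sided at an adjusted p (Benjamini-Hochberg over all genes tested) of 0.05. Counts at an unadjusted p under 0.05 stand without the share of all genes at that threshold and are not read as results. CPM values use the TMM-scaled library sizes, and reads were counted without molecular identifiers. The error was set by the spread between replicate libraries, not by the number of reads.

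Libraries with the same replicate number deviated together: the correlation of their deviations from the group means was 0.205 to 0.531 over all 15 pairs of groups. The numbers were therefore also fitted as a block, which the labels do not explain. Other alternatives were DESeq2 1.42.0, RLE factors, other count filters, limma 3.58.1 on log2(TPM + 1) or log2(TPM + 0.1), removal of mitochondrial genes, fits of the compared groups alone and the omission of each library. Chromosome medians as offsets and the omission of libraries for the replicate comparison were added after the data were seen.

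Named in full were the genes past the threshold (the 12 smallest adjusted p where more passed) and 9 markers, Mki67, Top2a, Pcna, Mcm2, Ccnd1, Ccne1, Ccnb1, E2f1 and Foxm1. From each wider list up to 5 genes with the smallest adjusted p were named. The members and all lists were chosen with earlier results of these data known. Part of the genotype and 1 epithelial marker are not reported here.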

Additional observations from a re-analysis of the deposited data

Results flagged for a closer look

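Uhrf1 was singled out because the effect of the Spdef knockout differed between the 2 lines by a test of the difference itself. The log2 fold change was -0.77 in mT6 and 0.29 in mT69a, a difference of 1.05 ± 0.25 (adjusted p = 0.0313) by edgeR's interaction contrast. The median of tested genes on its chromosome, 17, differed between the lines by 0.50 in the same direction, and the part of that shift in the difference was not tested beyond the fit with chromosome offsets, which gave 0.57 ± 0.27 (adjusted p = 0.347).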

How the results depend on the processing

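Depth, from 9094295 to 28903831 counts, left every member at 46 counts or more; each group had 2 libraries and each line 1 clone per genotype. Of the 58 pairs of a gene and a comparison named with a call, none changed direction in any alternative. The pairs were picked by their call in a fit of these same libraries, so a kept direction is no separate support. Over all alternatives, 892 values kept direction and call and 436 kept direction but lost the call.

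A count in this section that is given without the share of all genes is not a result about the 47 genes. With the replicate block the number of the 47 genes called became 4 for knockout against control on average (15.0% of all genes), 4 in mT69a (16.0%) and 8 for the difference between lines (15.2%). For the SPDEF vector against knockout it became 10 on average (15.8%), 1 in mT6 (7.29%) and 4 in mT69a (10.6%). It became 9 for the SPDEF vector against control in mT6 (19.0%). Among the 47 genes the block changed no other call than those named in the text. With chromosome medians as offsets the counts became 1 for knockout against control on average, 0 in mT6 and 0 for the difference between lines. The share of all genes for the knockout in mT6 fell as well, from 3.23% to 1.87%. With the same offsets the counts were 2 for the SPDEF vector against knockout, 1 for the SPDEF vector against control in mT6 and 12 between the control lines (23.8% of all genes). With offsets and the block they were 2 for the knockout in mT6, 4 in mT69a and 0 for the difference between lines, and 9 and 3 for the SPDEF vector against knockout on average and in mT69a.

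DESeq2 called 4 for the difference in the knockout between lines, and 3 and 2 for the SPDEF vector against knockout on average and in mT69a. Without the count filter the counts were 2 for the knockout in mT6, 1 in mT69a and 2 for the SPDEF vector against knockout. Without mitochondrial genes 3 passed for the SPDEF vector against control in mT6. With only the groups compared in the fit the counts were 1 for the knockout on average, 0 in mT6 and 0 for the difference between lines, 2 for the SPDEF vector against knockout in mT69a, 0 for the SPDEF vector against control in mT6 and 12 between the control lines; such a fit has fewer libraries.

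On log2(TPM + 1) limma called 1 gene for the knockout on average, 1 for the SPDEF vector against control on average, 1 between the control lines and 0 in every other comparison. On log2(TPM + 0.1) it called 0 for the knockout on average, 1 for the SPDEF vector against control on average and 1 between the control lines, and without a filter on low TPM the counts were again 1, 1 and 1, with 0 elsewhere. The cause was not tested. The G1/S minus G2/M difference, centred on its mean over libraries, was 0.163 and 0.168 in the mT6 controls on log2 CPM, and 0.168 and 0.140 on log2(TPM + 1).

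Leaving out 1 library gave 1 to 2 called genes for the knockout on average, 0 to 3 in mT6, 0 to 2 in mT69a and 0 to 2 for the difference between lines. For the SPDEF vector against knockout the range was 0 to 2 on average, 0 to 0 in mT6, 0 to 1 in mT69a and 0 to 0 for the difference between lines. For the SPDEF vector against control it was 4 to 8 on average, 1 to 4 in mT6 and 2 to 5 in mT69a, and between the control lines 6 to 24. For the replicate number it was 6 to 10.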
